A study of Homo sapiens with 6 samples.

Results

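MET, MST1R, IGF1R, INSR, IGF2, FGFR1, FGFR2, FGFR3, FGFR4 and FGF2 encode growth factor receptors and ligands, and their RNA was followed through MKN45 and its derivatives that resist T cell bispecific antibodies. They were taken by symbol from the count table, 10 of 29744 symbols, and all 10 were among the 14958 that passed the filter on low counts. MKN45 is an established line of gastric tumour cells known for a high level of MET, and the labels call it sensitive. HER2R (source name MKN45-HER2) is described as resistant to a HER2-TCB and CEAR (source name MKN45-CEAR) as resistant to a CEACAM5-TCB. A TCB is a bispecific antibody that links an antigen of the tumour cell to CD3 on a T cell. All lines grew in DMEM/F-12 with serum and the labels list no treatment. Whether a resistant line is 1 clone, whether it was kept under antibody before harvest, and whether MKN45-HER2 carries an added HER2 are not stated. Each line gave 2 libraries of total RNA, numbered 1 and 2, with 39657353 and 40246614 counts in HER2R, 39659202 and 43554345 in CEAR, and 57964246 and 44219063 in MKN45. Separate cultures for the libraries of a line are not stated, so p-values measure only a spread between these samples that may be technical.

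MET and its relative MST1R, also called RON, are receptor tyrosine kinases bound by hepatocyte growth factor (gene HGF) and by macrophage stimulating protein (gene MST1). IGF1R and INSR bind the insulin-like growth factors and insulin, while FGFR1 to FGFR4 bind fibroblast growth factors with heparan sulfate as a partner. A bound receptor phosphorylates itself and docks adaptors, and the signal passes to the RAS-MAPK and PI3K-AKT cascades. In gastric cancer MET and FGFR2 are both known as genes that can be amplified.

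The upstream sequences of 5 of these genes are shown because they belong to the receptor with the highest RNA level, MET, and to 4 genes whose RNA differed between lines. Each run is 5′ to 3′ on the strand of the gene, from RefSeq on GRCh38.p14. Capitals mark GC boxes (GGGCGG on either strand) and, in IGF1R, also the letters ACGTG, the core of hypoxia response elements, on either strand. The windows are chr7:116671946-116672195 on the plus strand for MET, chr4:122826581-122826681 on the plus strand for FGF2, chr4:1793043-1793292 on the plus strand for FGFR3, chr10:121598459-121598694 on the minus strand for FGFR2 and chr15:98648289-98648538 on the plus strand for IGF1R.
MET: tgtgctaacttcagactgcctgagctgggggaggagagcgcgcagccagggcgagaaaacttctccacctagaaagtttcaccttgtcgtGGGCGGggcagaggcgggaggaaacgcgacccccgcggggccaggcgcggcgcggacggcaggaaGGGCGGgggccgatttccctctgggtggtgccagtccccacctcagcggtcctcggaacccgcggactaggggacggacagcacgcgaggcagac
FGF2: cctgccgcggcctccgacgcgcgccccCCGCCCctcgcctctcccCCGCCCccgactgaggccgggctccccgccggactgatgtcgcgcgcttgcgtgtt
FGFR3: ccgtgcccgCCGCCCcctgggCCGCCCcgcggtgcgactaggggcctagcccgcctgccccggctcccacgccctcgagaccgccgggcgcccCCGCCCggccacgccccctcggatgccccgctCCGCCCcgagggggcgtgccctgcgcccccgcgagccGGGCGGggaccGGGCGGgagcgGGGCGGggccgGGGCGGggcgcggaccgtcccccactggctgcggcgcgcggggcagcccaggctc
FGFR2: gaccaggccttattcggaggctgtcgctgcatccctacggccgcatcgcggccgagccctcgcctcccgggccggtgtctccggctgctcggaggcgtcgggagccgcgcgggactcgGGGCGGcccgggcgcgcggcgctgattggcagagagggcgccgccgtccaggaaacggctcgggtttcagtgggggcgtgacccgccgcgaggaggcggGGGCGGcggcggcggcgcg
IGF1R: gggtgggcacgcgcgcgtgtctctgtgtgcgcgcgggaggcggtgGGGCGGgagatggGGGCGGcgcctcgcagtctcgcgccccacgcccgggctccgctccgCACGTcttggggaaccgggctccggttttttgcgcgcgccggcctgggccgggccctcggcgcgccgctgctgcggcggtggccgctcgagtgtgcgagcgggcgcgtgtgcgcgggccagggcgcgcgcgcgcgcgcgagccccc
RefSeq windows were used for 8 of the 10 genes. GC boxes numbered 2 in MET, 2 in FGF2, 8 in FGFR3, 2 in FGFR2 and 2 in IGF1R. A GC box stood in 42.6% of 35116 windows of 250 bases, in 40.9% of windows of 236 bases, the length for FGFR2, and in 17.5% of windows of 101 bases, the length for FGF2. IGF1R held 1 match to ACGTG, which 18.5% of windows of 250 bases contain. The letters TATAAA were in none of the 5 windows shown, against 10.7% of windows of 250 bases. The genes that differed in opposite directions below, FGF2 and FGFR3, both had GC-rich windows, at 80.2% and 86.8% G or C. The medians over all windows of these lengths were 55.4% and 58.0%. MET, FGFR2 and IGF1R also lay above the medians for their lengths, at 68.4%, 78.0% and 81.2%.

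In HER2R 4 of the 10 genes rose against MKN45 (IGF1R, IGF2, FGFR2 and FGF2) and 1 fell (FGFR3), at an edgeR adjusted p under 0.05. Of all tested genes 4.89% rose and 4.85% fell in the same comparison, 9.74% in all. In CEAR 0 of 10 rose against MKN45 and 1 fell (FGF2), where 2.57% of all genes rose and 3.62% fell, 6.19% in all. For the rises in CEAR, 1 gene had an unadjusted edgeR p under 0.05 and DESeq2 called 1. With the library number as a replicate block, the 10 genes gave 4 higher and 2 lower in HER2R, where 16.2% and 17.5% of all genes were called, 33.7% in all. In CEAR the block gave 1 higher and 2 lower, where 12.0% and 13.8% of all genes were called, 25.8% in all. Both comparisons use the same 2 MKN45 libraries. The same shares of all genes stand beside the counts of the pathway lists below. The median log2 fold change of the 10 genes was 0.03 in HER2R and -0.01 in CEAR, beside -0.02 and -0.00019 over all tested genes.

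**Figure D1:**
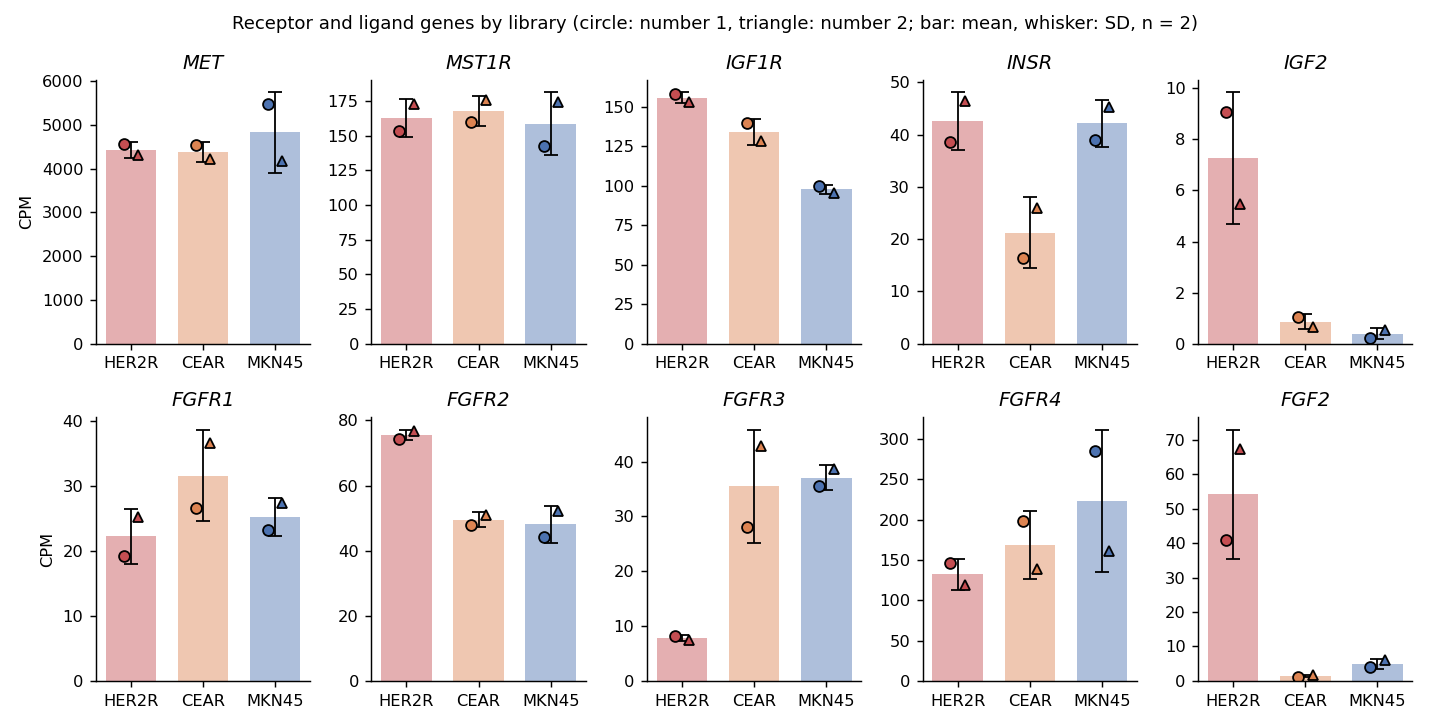
Level of each of the 10 genes in CPM, counts scaled by library depth, in every library of HER2R, CEAR and MKN45, with the mean as a bar and the SD as a whisker (n = 2 per line). FGF2 and IGF2 stand high in both HER2R libraries, FGFR3 stands low in both, and MET and MST1R overlap between the 3 lines.

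**Figure D2:**
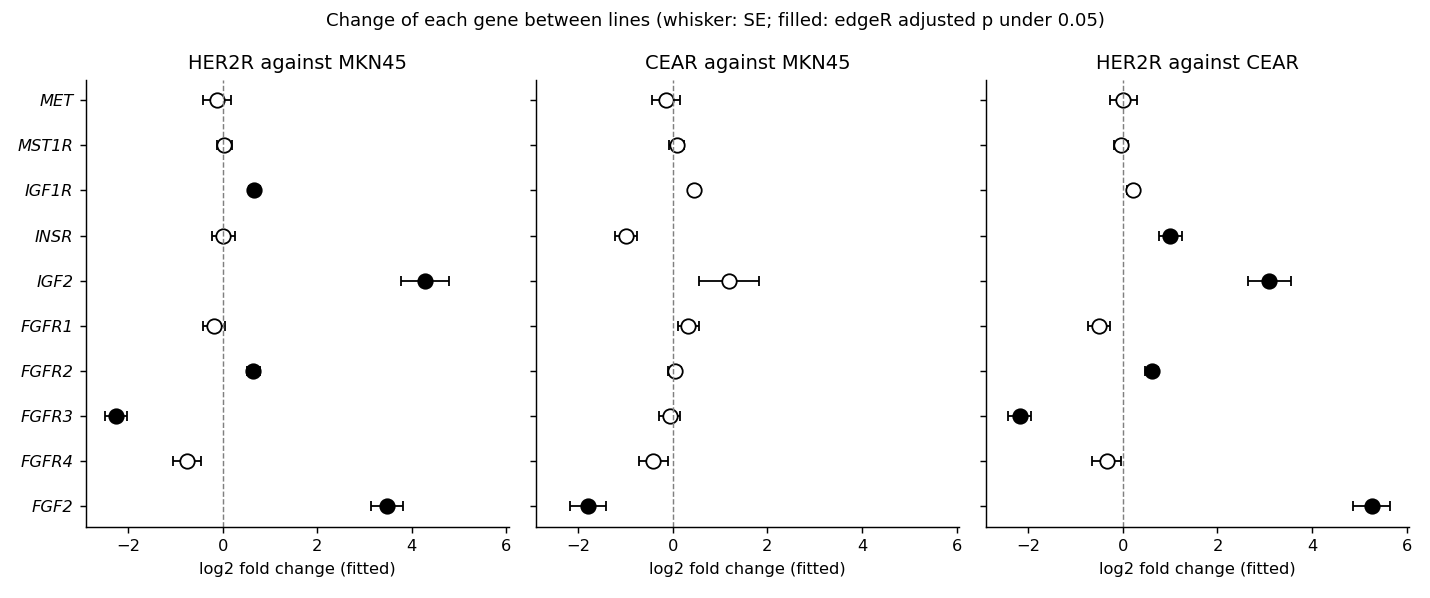
Fitted log2 fold change of each gene in both resistant lines against MKN45 and between the resistant lines, with the SE as a whisker and filled points for an edgeR adjusted p under 0.05. FGF2 is called in all 3 panels, at 3.47, -1.79 and 5.26, and MET lies near 0 in each.

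MET (chromosome 7, 116672390 to 116798386, plus strand, GRCh38) did not pass the test in any comparison. In CPM, which are counts scaled by library depth, it had 4554 and 4307 CPM in HER2R, 4553 and 4229 CPM in CEAR, and 5478 and 4179 CPM in MKN45. The ranges overlapped, and library 1 was the higher one in each line. Against MKN45 the log2 fold change was -0.12 in HER2R (edgeR adjusted p = 0.816, SE 0.293), with a 95% interval of the fold from 0.563 to 1.49. For CEAR it was -0.14 (edgeR adjusted p = 0.834, SE 0.293), with an interval from 0.558 to 1.48. The MKN45 libraries were the farthest apart. A change within these bounds remains possible, but the bounds do not mark the smallest change that the test could have called. MET took 0.416% to 0.534% of all counts in a library and ranked 6th to 10th among all symbols by raw count.

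Levels were also divided by the joint length of all annotated exons of a gene. Ranks and shares on this scale thus depend on the annotation, with 13.8 kilobases for FGFR1 and 4.85 for FGFR3. Per kilobase of exon MET averaged 629 CPM in HER2R, 624 CPM in CEAR and 686 CPM in MKN45. That placed it at rank 28, 27 and 23 of 13283 genes in the 3 lines, and first of 58 receptor tyrosine kinases in each. The second was EPHA2, an ephrin receptor, at 81.4 CPM per kilobase in HER2R, 38.1 in CEAR and 58.0 in MKN45. Among the other receptors described here, FGFR4 ranked 6th of 58 in HER2R and 3rd in CEAR and MKN45, and MST1R ranked 4th, 4th and 6th. FGFR1 ranked 22nd in HER2R, 20th in CEAR and 22nd in MKN45.

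**Figure D3:**
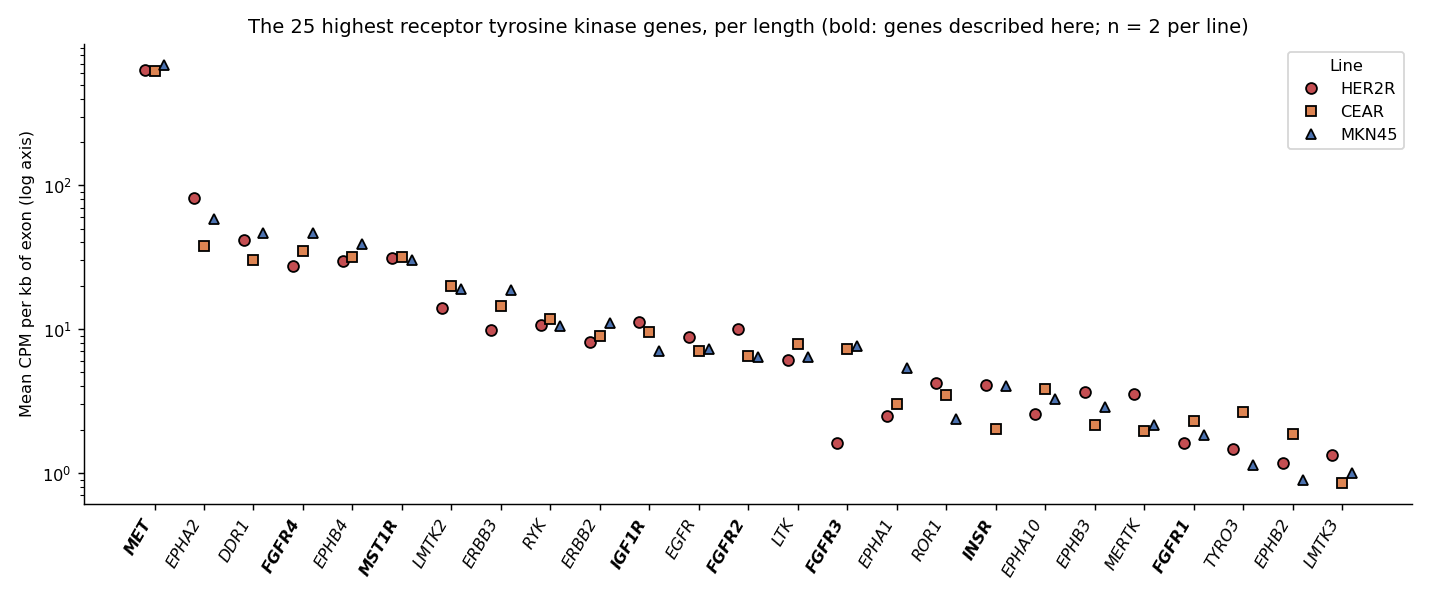
Mean CPM per kilobase of exon, on a log axis, of the 25 receptor tyrosine kinase genes with the highest levels in HER2R, CEAR and MKN45 (n = 2 per line, genes described here in bold). MET stands first in every line, at 629, 624 and 686, above EPHA2 at 81.4, 38.1 and 58.0.

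MST1R (chromosome 3, 49887002 to 49903873, minus strand) had 153 and 173 CPM in HER2R, 160 and 175 CPM in CEAR, and 142 and 175 CPM in MKN45, with overlapping ranges. Against MKN45 it differed by 0.04 on the log2 scale in HER2R (edgeR adjusted p = 0.890, SE 0.151) and 0.08 in CEAR (edgeR adjusted p = 0.807, SE 0.151). MET made up 95.3 ± 0.554% of the summed RNA of MET and MST1R per kilobase in HER2R, 95.1 ± 0.545% in CEAR and 95.7 ± 1.37% in MKN45 (SD, n = 2). The ligand of MET was all but absent: HGF had 0 and 0 counts in HER2R, 0 and 0 in CEAR, and 0 and 2 in MKN45. MST1 stood at 1.53 ± 0.828 CPM in HER2R, 1.97 ± 0.212 CPM in CEAR and 0.775 ± 0.0939 CPM in MKN45, and none of its differences passed the test without the block. With the block it passed in CEAR against MKN45 (edgeR adjusted p = 0.0337, log2 fold change 1.35), where without it the edgeR adjusted p was 0.140. MST1 has a near-identical copy, MST1L, between which reads could be split, so its level is uncertain.

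Proteases that cut these ligands into their active form, with their inhibitors and the ligands, made a list of 12 genes, of which 9 were tested, with a median log2 fold change of 0.07 in HER2R and -0.29 in CEAR against MKN45. In HER2R 1 rose and 0 fell, by edgeR, with 1 lower at an unadjusted p under 0.05 and 1 lower by DESeq2. The gene that rose was PLAU, urokinase, a protease that can activate HGF. PLAU had 18.9 and 30.7 CPM in HER2R, 35.0 and 11.1 CPM in CEAR, and 4.30 and 3.91 CPM in MKN45. Both resistant lines lay above MKN45 in every library, and the CEAR libraries were the farthest apart. PLAU rose by 2.59 on the log2 scale in HER2R (edgeR adjusted p = 0.0378, SE 0.557), a call that ended on leaving out any HER2R or MKN45 library (edgeR adjusted p 0.115 to 0.166). In CEAR it was 2.48 (edgeR adjusted p = 0.0528), and 0.0083 with the block. In CEAR 0 genes of the list rose by edgeR (3 at an unadjusted p under 0.05, 1 by DESeq2) and 1 fell, TMPRSS13, a membrane serine protease. It stood at 1.26 ± 0.119 CPM in CEAR against 5.03 ± 0.504 CPM in MKN45 (log2 fold change -1.99, edgeR adjusted p = 0.0241). That call ended on leaving out any CEAR or MKN45 library (edgeR adjusted p 0.0653 to 0.110). The block gave 1 higher and 1 lower in HER2R and 2 higher and 3 lower in CEAR.

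Of 22 tested genes for MET partners and turnover, 2 rose and 1 fell in HER2R (4 and 2 with the block), and 1 rose and 0 fell in CEAR (4 and 2 with the block). The median log2 fold change was 0.04 in HER2R and 0.08 in CEAR. For the 0 that fell in CEAR, 2 genes had an unadjusted edgeR p under 0.05 and DESeq2 called 2. LRIG1, a membrane protein that promotes degradation of receptors including MET, averaged 37.4 ± 4.05 CPM in HER2R, 35.6 ± 0.650 CPM in CEAR and 19.3 ± 0.302 CPM in MKN45. It rose by 0.96 in HER2R (log2, edgeR adjusted p = 0.0153) and by 0.88 in CEAR (edgeR adjusted p = 0.0226). ADAM17, a sheddase that releases receptor ectodomains, averaged 56.0 ± 10.5 CPM in HER2R and 27.2 ± 5.80 CPM in MKN45 (log2 fold change 1.04, edgeR adjusted p = 0.0449). PTPN1, a tyrosine phosphatase of MET and the insulin receptor, averaged 54.7 ± 2.53 CPM in HER2R and 84.4 ± 6.60 CPM in MKN45 (log2 fold change -0.63, edgeR adjusted p = 0.0382). The calls of LRIG1 and ADAM17 in HER2R ended on leaving out any HER2R or MKN45 library (edgeR adjusted p 0.0642 to 0.110 and 0.0708 to 0.218). Those of PTPN1 in HER2R and LRIG1 in CEAR ended on leaving out any of the 6 libraries (0.0577 to 0.203 and 0.0521 to 0.108).

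The genes beside MET on the long arm of chromosome 7 were listed as neighbours, 15 in all, of which 9 were tested, with a median log2 fold change of -0.07 in HER2R and 0.43 in CEAR. In HER2R 2 rose and 0 fell, and in CEAR 3 rose and 0 fell, by edgeR. For the falls in HER2R, 1 gene had an unadjusted p under 0.05 and DESeq2 called 1. In CEAR these counts were 0 and 0. CAV1 (chromosome 7, 116524785 to 116561184), the main coat protein of caveolae, had 158 and 174 CPM in HER2R, 59.4 and 80.1 CPM in CEAR, and 17.4 and 28.7 CPM in MKN45. The 3 lines did not overlap, with HER2R highest and MKN45 lowest. Its log2 fold change was 2.85 in HER2R (edgeR adjusted p = 0.0042, SE 0.276), which held with each library left out in turn. In CEAR it was 1.60 (edgeR adjusted p = 0.0231, SE 0.266), a call that ended without HER2R library 1, HER2R library 2, CEAR library 2 or MKN45 library 1 (edgeR adjusted p 0.0577 to 0.0838). CAV2, its partner in caveolae, averaged 299 ± 18.8 CPM in HER2R, 278 ± 15.3 CPM in CEAR and 147 ± 9.85 CPM in MKN45. It rose by 1.02 in HER2R (edgeR adjusted p = 0.00957) and by 0.92 in CEAR (edgeR adjusted p = 0.0158). The HER2R call of CAV2 ended without HER2R library 1, HER2R library 2 or MKN45 library 1 (edgeR adjusted p 0.0507 to 0.0795), and the CEAR call without any CEAR or MKN45 library (0.0598 to 0.0878).

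MDFIC, an inhibitor of MyoD-family factors, averaged 223 ± 17.2 CPM in HER2R, 318 ± 15.6 CPM in CEAR and 204 ± 13.1 CPM in MKN45. Against MKN45 it rose in CEAR (log2 fold change 0.64, edgeR adjusted p = 0.0432) and was not called in HER2R (0.13, edgeR adjusted p = 0.556). The CEAR call ended on leaving out any of the 6 libraries (0.0906 to 0.192). The other tested neighbours were not called in HER2R or CEAR against MKN45. TES, a focal adhesion protein, averaged 982 ± 147 CPM in HER2R, 1048 ± 50.4 CPM in CEAR and 1031 ± 12.6 CPM in MKN45. CAPZA2, an actin capping subunit on the other side of MET, averaged 1077 ± 90.5 CPM in HER2R, 1137 ± 52.3 CPM in CEAR and 1454 ± 4.69 CPM in MKN45. Both MKN45 libraries, at 1450 and 1457 CPM, lay above every HER2R and CEAR library. ST7 averaged 224 ± 4.01, 247 ± 7.49 and 241 ± 0.696 CPM in HER2R, CEAR and MKN45, and LSM8 averaged 98.7 ± 17.5, 109 ± 18.8 and 109 ± 12.5 CPM. The RNAs ST7-AS1 (5.20 ± 0.464 CPM in HER2R, 8.75 ± 0.654 CPM in CEAR, 6.50 ± 1.03 CPM in MKN45) and ST7-OT4 (2.52 ± 0.683, 3.37 ± 0.824 and 2.20 ± 0.120 CPM) were not called either. DNA copy number was not measured here.

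**Figure D4:**
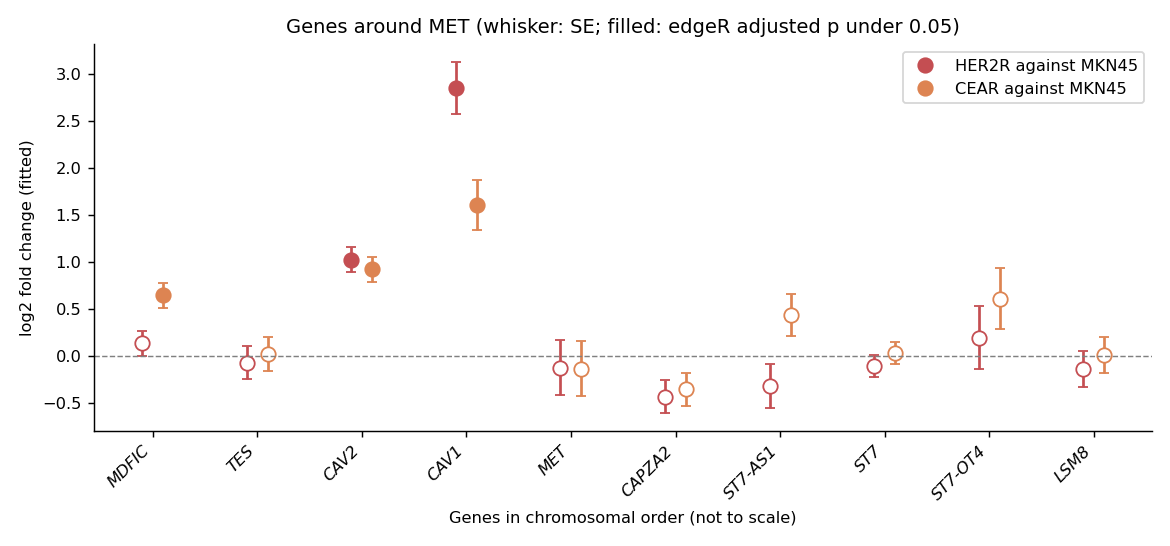
Fitted log2 fold change, with the SE as a whisker, of MET and its 9 tested neighbours in chromosomal order (not to scale), in HER2R and in CEAR against MKN45, with filled points for an edgeR adjusted p under 0.05. CAV1 stands highest, at 2.85 in HER2R and 1.60 in CEAR, followed by CAV2 at 1.02 and 0.92, whereas MET lies at -0.12 and -0.14.

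In the insulin-like branch IGF1R and IGF2 rose in HER2R, and none of its 3 genes described here was called in CEAR against MKN45 without the block. IGF1R (chromosome 15, 98648539 to 98964530, plus strand), the receptor for IGF1 and IGF2, had 158 and 153 CPM in HER2R, 140 and 128 CPM in CEAR, and 99.8 and 95.3 CPM in MKN45. The lines did not overlap, with HER2R highest and MKN45 lowest. IGF1R rose by 0.67 on the log2 scale in HER2R against MKN45 (edgeR adjusted p = 0.0236, SE 0.119), and the call ended on leaving out any HER2R or MKN45 library (edgeR adjusted p 0.078 to 0.144). The difference of CEAR from MKN45 was 0.46 (edgeR adjusted p = 0.0753, SE 0.119), and 0.0102 with the block, over a range of 0.0102 to 1 across the alternatives tried.

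INSR (chromosome 19, 7112255 to 7294034, minus strand), the insulin receptor, had 38.6 and 46.5 CPM in HER2R, 16.5 and 26.0 CPM in CEAR, and 38.9 and 45.4 CPM in MKN45. Both CEAR libraries lay below the others, and HER2R overlapped MKN45. INSR differed from MKN45 by 0.01 on the log2 scale in HER2R (edgeR adjusted p = 0.976, SE 0.238) and by -0.99 in CEAR (edgeR adjusted p = 0.0660, SE 0.242). With the block the CEAR difference passed the test (edgeR adjusted p = 0.0015), over a range of 0.0015 to 0.349 across the alternatives tried. Of the summed RNA of IGF1R and INSR per kilobase, IGF1R made up 73.3 ± 3.0% in HER2R, 82.6 ± 5.45% in CEAR and 63.5 ± 3.26% in MKN45 (SD, n = 2).

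IGF2 (chromosome 11, 2129112 to 2149603, minus strand), a fetal-type growth factor that is imprinted, had 357 and 214 counts in HER2R, 44 and 29 in CEAR, and 13 and 24 in MKN45. On the CPM scale these were 9.09 and 5.46 in HER2R, 1.06 and 0.652 in CEAR, and 0.230 and 0.546 in MKN45. Both HER2R libraries lay above the rest, and both CEAR libraries lay above both MKN45 libraries. IGF2 rose by 4.28 on the log2 scale in HER2R (edgeR adjusted p = 0.00758, SE 0.508), which held with each library left out in turn at 3.73 to 4.96. CEAR did not pass, at 1.19 (edgeR adjusted p = 0.327, SE 0.634), with a 95% interval of the fold from 0.791 to 6.54. The readthrough gene INS-IGF2, which shares most of the IGF2 span, had 0 and 0 counts in HER2R, 6 and 0 in CEAR and 5 and 0 in MKN45, and IGF2-AS had 0 in all 6. IGF1 and INS had 0 counts in all 6 libraries. A count of 0 allows up to 3 counts, or 0.0764 and 0.0765 CPM in HER2R, 0.0723 and 0.0674 CPM in CEAR, and 0.0531 and 0.0682 CPM in MKN45, by counting error alone.

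Of 20 ligands, receptors and binding proteins of this branch 9 were tested. In HER2R 2 rose and 0 fell, with a median log2 fold change of 0.004. DESeq2 called 1 higher and 0 lower, and 0 were lower at an unadjusted edgeR p under 0.05. In CEAR 2 rose and 0 fell (again 0 at an unadjusted p under 0.05 and by DESeq2), with a median of 0.16. IGFBP1, a secreted binding protein that is induced in liver by fasting, had 37.0 and 37.5 CPM in HER2R, 3.18 and 2.65 CPM in CEAR, and 0.655 and 0.659 CPM in MKN45. The lines did not overlap, with HER2R highest and MKN45 lowest. IGFBP1 rose 56.4-fold in HER2R (log2 5.82, edgeR adjusted p = 0.000754, SE 0.232) and 4.42-fold in CEAR (log2 2.14, edgeR adjusted p = 0.00868, SE 0.244), and both calls held with each library left out in turn. IGFBP3, which carries most IGF in blood, had 20 and 39 counts in HER2R, 0 and 4 in CEAR, and 2 and 4 in MKN45. Its log2 fold change was 3.59 in HER2R (edgeR adjusted p = 0.0373, SE 0.863), a call that ended on leaving out any HER2R or MKN45 library (0.0934 to 0.20). IGFBP2 averaged 26.4 ± 1.66 CPM in HER2R, 113 ± 52.2 CPM in CEAR and 35.9 ± 7.48 CPM in MKN45. It was called in CEAR (log2 fold change 1.65, edgeR adjusted p = 0.0370), but not without any library other than CEAR library 1 (0.0838 to 0.147). IGF2R, which removes IGF2, averaged 85.7 ± 13.3, 76.7 ± 13.8 and 86.8 ± 20.2 CPM in HER2R, CEAR and MKN45 and was not called.

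Downstream of these receptors, 15 of 18 adaptors and IGF2 RNA-binding proteins were tested, with a median log2 fold change of -0.08 in HER2R and -0.02 in CEAR. In HER2R 1 rose and 2 fell (2 and 3 with the block). In CEAR 0 rose and 0 fell by edgeR (0 and 2 at an unadjusted p under 0.05, 0 and 2 by DESeq2, 0 and 2 with the block). IRS2, a docking protein of the insulin and IGF1 receptors, had 160 and 155 CPM in HER2R, 75.7 and 61.7 CPM in CEAR, and 68.8 and 52.4 CPM in MKN45. Both HER2R libraries were above all others, and CEAR overlapped MKN45. IRS2 rose by 1.38 in HER2R (log2, edgeR adjusted p = 0.00973, SE 0.179), a call that ended without either HER2R library (edgeR adjusted p 0.0706 to 0.0750). DOK4, another docking protein, averaged 14.6 ± 2.08 CPM in HER2R, 28.3 ± 1.93 CPM in CEAR and 48.7 ± 9.88 CPM in MKN45. It fell by 1.74 in HER2R (log2, edgeR adjusted p = 0.00705, SE 0.202), a call that ended without HER2R library 1 (0.0651). PTPN1, given above, was the other that fell. IRS1 stood at 30.3 ± 5.47 CPM in HER2R, 22.6 ± 2.57 CPM in CEAR and 37.3 ± 1.52 CPM in MKN45 and was not called in either line (edgeR adjusted p = 0.324 in HER2R and 0.0687 in CEAR), although it passed in CEAR with the block (0.0066).

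Among the FGF receptors, FGFR3 fell and FGFR2 rose in HER2R, while none was called in CEAR against MKN45. FGFR3 (chromosome 4, 1793293 to 1808872, plus strand) had 8.15 and 7.45 CPM in HER2R, 28.1 and 42.8 CPM in CEAR, and 35.5 and 38.6 CPM in MKN45. Both HER2R libraries lay below all others, and CEAR spanned the MKN45 values. FGFR3 was 4.75-fold lower in HER2R than in MKN45 (log2 fold change -2.25, edgeR adjusted p = 0.00502, SE 0.235), and the call ended only without HER2R library 2 (0.0566). For CEAR the difference was -0.06 (edgeR adjusted p = 0.904, SE 0.218), with a 95% interval of the fold from 0.666 to 1.38.

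FGFR2 (chromosome 10, 121478334 to 121598458, minus strand) had 74.5 and 76.7 CPM in HER2R, 47.9 and 51.1 CPM in CEAR, and 44.2 and 52.2 CPM in MKN45. HER2R lay above the other lines, and CEAR lay within the range of MKN45. FGFR2 rose by 0.65 on the log2 scale in HER2R (edgeR adjusted p = 0.0360, SE 0.137), a call that ended on leaving out any of the 6 libraries (0.0602 to 0.166). The call also ended with no filter on low counts (edgeR adjusted p = 0.0546) and in a fit of the compared lines alone (0.0576). The difference of CEAR was 0.04 (edgeR adjusted p = 0.902, SE 0.137). Counts per gene do not tell the epithelial form of FGFR2 from the mesenchymal one. ESRP1 and ESRP2, the splicing factors that favour the epithelial form, averaged 183 ± 8.25 and 102 ± 11.6 CPM in HER2R, 174 ± 3.04 and 132 ± 7.97 CPM in CEAR, and 197 ± 4.53 and 127 ± 6.75 CPM in MKN45, and were not called.

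FGFR4 (chromosome 5, 177086886 to 177098144, plus strand) had 146 and 119 CPM in HER2R, 198 and 139 CPM in CEAR, and 286 and 161 CPM in MKN45. Library 1 was the higher in each line, and HER2R lay below MKN45 without overlap. Neither line passed the test against MKN45, with -0.75 in HER2R (log2, edgeR adjusted p = 0.165, SE 0.304) and -0.41 in CEAR (log2, edgeR adjusted p = 0.485, SE 0.303). With the block HER2R passed (edgeR adjusted p = 0.0055, over a range of 0.0055 to 0.777 across the alternatives) and CEAR did not (0.0720). FGFR1 (chromosome 8, 38400215 to 38468834, minus strand) had 19.3 and 25.3 CPM in HER2R, 26.6 and 36.6 CPM in CEAR, and 23.2 and 27.4 CPM in MKN45. HER2R lay below CEAR, both overlapped MKN45, and library 2 was the higher in each line. Its log2 fold change was -0.18 in HER2R (edgeR adjusted p = 0.641) and 0.33 in CEAR (edgeR adjusted p = 0.444) against MKN45.

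Per kilobase of exon, the 4 FGF receptors together averaged 40.6 ± 3.56 CPM in HER2R, 51.0 ± 5.73 CPM in CEAR and 62.1 ± 16.9 CPM in MKN45 (SD, n = 2). FGFR4 made up the most in every library, at 67.4 ± 3.88% of the sum in HER2R, 67.8 ± 9.38% in CEAR and 73.2 ± 9.58% in MKN45. FGFR2 made up 24.7 ± 2.68% in HER2R, 12.9 ± 2.03% in CEAR and 10.8 ± 4.14% in MKN45. The share of FGFR3 was 3.96 ± 0.0939% in HER2R, 14.7 ± 5.84% in CEAR and 12.9 ± 4.24% in MKN45. Below FGFR4 on this scale, FGFR2 stood above FGFR3 and FGFR1 in both HER2R libraries, while in CEAR the FGFR2 and FGFR3 shares overlapped. In both MKN45 libraries FGFR3 stood above FGFR2, at 9.90% and 15.9% of the sum for FGFR3 and 7.88% and 13.7% for FGFR2. The CEAR and MKN45 orders rest on the exon lengths used, since in plain CPM FGFR3 was below FGFR2 in every library. In CEAR FGFR3 had 28.1 and 42.8 CPM against 47.9 and 51.1 CPM for FGFR2. In MKN45 it had 35.5 and 38.6 CPM against 44.2 and 52.2 CPM.

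**Figure D5:**
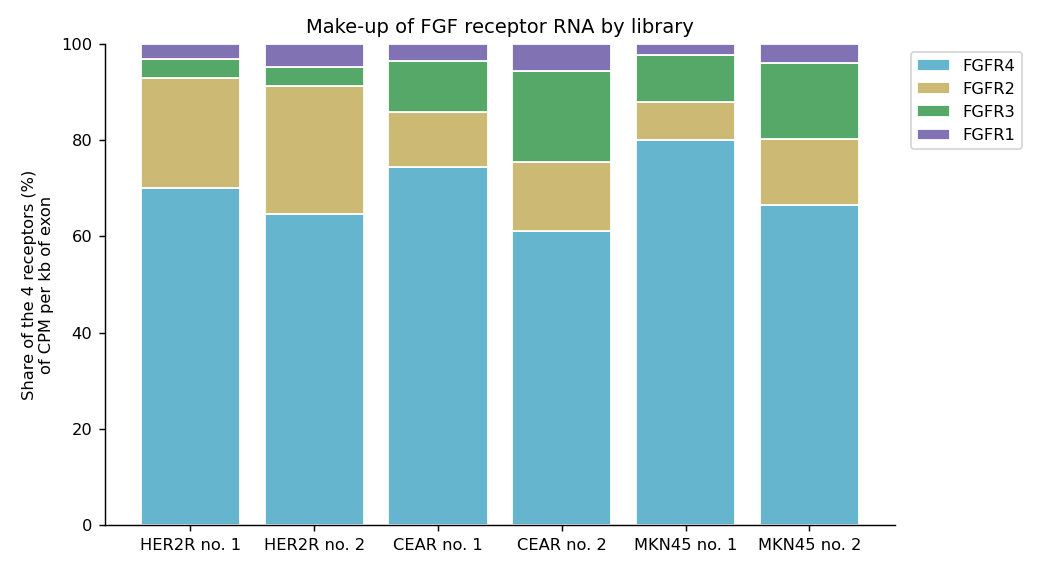
Share of each FGF receptor in the sum of the 4, in percent of CPM per kilobase of exon, for each library of HER2R, CEAR and MKN45. FGFR4 is the main part of every bar, and in HER2R the FGFR2 part is wide (22.8% and 26.6%) and the FGFR3 part narrow (3.90% and 4.03%).

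FGF2 (chromosome 4, 122826708 to 122898236, plus strand), basic fibroblast growth factor, a ligand released without a signal peptide, moved apart in the resistant lines. It had 41.0 and 67.5 CPM in HER2R, 1.18 and 1.64 CPM in CEAR, and 3.91 and 5.93 CPM in MKN45. The lines did not overlap, with HER2R highest and CEAR lowest. FGF2 rose 11.1-fold in HER2R against MKN45 (log2 3.47, edgeR adjusted p = 0.00425, SE 0.338), which held with each library left out in turn at log2 3.06 to 3.79. In CEAR it was 3.46-fold lower (log2 fold change -1.79, edgeR adjusted p = 0.0461, SE 0.381). That call lay close to the threshold and ended on leaving out any of the 6 libraries (edgeR adjusted p 0.0602 to 0.164, log2 fold change -2.06 to -1.47). NUDT6, which overlaps FGF2 on the opposite strand, averaged 2.35 ± 0.110 CPM in HER2R, 2.24 ± 0.334 CPM in CEAR and 1.35 ± 0.730 CPM in MKN45 and was not called. The library kit keeps strand, but whether counting used it is not given in the sources used here. A list of genes that overlap the 10 genes or lie near them had 10 tested. In HER2R 1 rose and 0 fell (2 and 0 with the block), where 9.74% of all genes were called. In CEAR 0 rose and 1 fell (1 and 2 with the block), where 6.19% were called. Between the resistant lines 1 was higher in HER2R and 0 were lower (4 and 0 with the block), where 14.1% were called.

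Of 21 other FGF ligands, FGF11 and FGF18 alone passed the filter. FGF11 averaged 7.92 ± 2.84 CPM in HER2R, 4.35 ± 0.427 CPM in CEAR and 7.92 ± 1.70 CPM in MKN45. FGF18 averaged 0.726 ± 0.0186 CPM in HER2R, 0.151 ± 0.00901 CPM in CEAR and 0.628 ± 0.213 CPM in MKN45. In HER2R 0 of these 2 rose or fell against MKN45, also at an unadjusted edgeR p under 0.05 and by DESeq2. In CEAR 0 rose and 0 fell by edgeR, with 2 lower at an unadjusted p under 0.05, 0 by DESeq2 and 2 with the block. FGF9 was not tested, with 0 and 2 counts in HER2R, 3 and 9 in CEAR and 13 and 50 in MKN45.

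Coreceptors, carriers and modulators of FGF signalling numbered 34, of which 26 were tested, with a median log2 fold change of -0.04 in HER2R and -0.07 in CEAR. In HER2R 2 rose and 3 fell (6 and 4 with the block), and in CEAR 1 rose and 2 fell (3 and 7 with the block). SHISA2, whose frog relative holds FGF receptors back in the endoplasmic reticulum, had 529 and 253 counts in HER2R, 385 and 393 in CEAR, and 3 and 1 in MKN45. The fitted log2 fold change was 7.87 in HER2R (edgeR adjusted p = 0.0019) and 7.73 in CEAR (edgeR adjusted p = 0.00241), both of which held with each library left out in turn, although their size rests on 4 counts in MKN45. GPC3, a glypican that carries heparan sulfate chains, had 2.88 and 2.37 CPM in HER2R, 2.29 and 4.2 CPM in CEAR, and 24.7 and 21.6 CPM in MKN45. MKN45 stood above every library of the resistant lines. GPC3 fell by 3.14 in HER2R (log2, edgeR adjusted p = 0.00491, SE 0.321), a call that ended without HER2R library 2 (0.0566), and by 2.83 in CEAR (edgeR adjusted p = 0.00762, SE 0.312), which held with each library left out in turn.

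SULF2, which removes sulfate from heparan chains outside the cell, averaged 26.1 ± 4.07 CPM in HER2R, 14.9 ± 3.94 CPM in CEAR and 72.9 ± 4.66 CPM in MKN45. It fell by 1.48 in HER2R (log2, edgeR adjusted p = 0.0136), a call that ended without HER2R library 1, HER2R library 2 or MKN45 library 2 (0.0589 to 0.107). In CEAR it fell by 2.29 (edgeR adjusted p = 0.00575), which held with each library left out in turn. GPC1, another glypican, averaged 58.7 ± 6.97 CPM in HER2R, 146 ± 8.04 CPM in CEAR and 151 ± 20.3 CPM in MKN45. It fell by 1.36 in HER2R (log2, edgeR adjusted p = 0.00679), a call that ended without HER2R library 1 (0.0661), and stood at -0.04 in CEAR (edgeR adjusted p = 0.904). EXT1, which polymerises heparan sulfate, averaged 101 ± 6.41 CPM in HER2R and 60.5 ± 0.895 CPM in MKN45 (log2 fold change 0.74, edgeR adjusted p = 0.0200), and its call ended on leaving out any HER2R or MKN45 library (0.0777 to 0.125).

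HER2R and CEAR were also set against each other directly, which tests the difference between the resistant lines. Of the 10 genes 4 were higher in HER2R (INSR, IGF2, FGFR2 and FGF2), where 7.32% of all tested genes were, and 1 was lower (FGFR3), where 6.75% were, 14.1% in all. With the block it was 4 higher and 2 lower, where 19.7% and 18.6% of all genes were called. FGF2 was 38.3-fold higher in HER2R than in CEAR (log2 5.26, edgeR adjusted p = 0.00229, SE 0.386), which held with each library left out in turn. IGF2 was 8.52-fold higher (log2 3.09, edgeR adjusted p = 0.0135, SE 0.457), a call that ended without HER2R library 1, HER2R library 2 or CEAR library 2 (0.0589 to 0.0791). FGFR3 was 4.55-fold lower (log2 fold change -2.18, edgeR adjusted p = 0.00649, SE 0.235), a call that ended without either HER2R library (0.0538 to 0.0665). INSR had a log2 fold change of 1.00 (edgeR adjusted p = 0.0423, SE 0.242), which ended without any library other than CEAR library 2 (0.0541 to 0.193). For FGFR2 it was 0.61 (edgeR adjusted p = 0.0350, SE 0.137), which ended on leaving out any HER2R or CEAR library (0.126 to 0.164) and with no filter on low counts (0.0519).

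The receptors that did not separate HER2R from CEAR were MET (log2 fold change 0.01, 95% interval of the fold 0.620 to 1.64, edgeR adjusted p = 0.981), MST1R (-0.04, edgeR adjusted p = 0.879), IGF1R (0.22, edgeR adjusted p = 0.266), FGFR1 (-0.51, edgeR adjusted p = 0.179) and FGFR4 (-0.34, edgeR adjusted p = 0.481). With the block FGFR1 passed as lower in HER2R (edgeR adjusted p = 0.0138, over a range of 0.0138 to 1 across the alternatives), in a fit that called 38.2% of all genes.

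The pathway lists were compared between the resistant lines in the same way, beside 14.1% of all tested genes called and 38.2% with the block. IGFBP1 was 12.8-fold higher in HER2R than in CEAR (log2 3.68, edgeR adjusted p = 0.000934, SE 0.197), which held with each library left out in turn. Of the 9 tested genes of that list 2 were higher (IGFBP1 and IGFBP3) and 1 was lower (IGFBP2), and the block gave 3 and 3. IGFBP3 differed by 3.94 (log2, edgeR adjusted p = 0.0312), a call that ended on leaving out any HER2R or CEAR library (0.0828 to 0.169). IGFBP2 differed by -2.10 (edgeR adjusted p = 0.0155), which ended without either HER2R library (0.102 to 0.104).

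Of the 15 adaptors 2 were higher in HER2R than in CEAR (GRB10 and IRS2) and 2 were lower (DOK4 and PTPN1), and the block gave 4 and 3. GRB10, an adaptor that dampens insulin receptor signalling, averaged 114 ± 19.3 CPM in HER2R and 34.5 ± 15.6 CPM in CEAR (log2 fold change 1.72, edgeR adjusted p = 0.0336), and IRS2 differed by 1.20 (edgeR adjusted p = 0.0136). Both calls ended without HER2R library 1, HER2R library 2 or CEAR library 2 (0.107 to 0.159 for GRB10 and 0.0705 to 0.0884 for IRS2). DOK4 differed by -0.95 (edgeR adjusted p = 0.0300) and PTPN1 by -0.66 (edgeR adjusted p = 0.0287), calls that ended on leaving out any HER2R or CEAR library (0.0782 to 0.151 and 0.0836 to 0.150).

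Of the 26 FGF coreceptors and modulators 2 were higher in HER2R than in CEAR (FGFBP1 and HS6ST1) and 2 were lower (GPC1 and FGFRL1), and the block gave 6 and 3. FGFBP1, a carrier that releases FGF2 from the matrix, averaged 8.54 ± 1.54 CPM in HER2R and 0.982 ± 0.213 CPM in CEAR (log2 fold change 3.12, edgeR adjusted p = 0.0299). HS6ST1, which sulfates heparan chains, averaged 73.6 ± 13.9 CPM in HER2R and 39.6 ± 1.76 CPM in CEAR (0.89, edgeR adjusted p = 0.0234). FGFRL1, an FGF receptor without a kinase domain, averaged 37.3 ± 7.46 CPM in HER2R and 65.0 ± 7.55 CPM in CEAR (-0.80, edgeR adjusted p = 0.0426). These 3 calls ended on leaving out any HER2R or CEAR library (0.0957 to 0.129, 0.0609 to 0.121 and 0.0847 to 0.184). GPC1 differed by -1.32 (edgeR adjusted p = 0.00785), which ended without either HER2R library (0.0589 to 0.0661). Of the other FGF ligands 1 was higher, FGF18, by 2.24 (edgeR adjusted p = 0.0495), a call that ended on leaving out any of the 6 libraries (0.0535 to 0.194), and the block gave 2.

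The lists around MET held 5 calls between the resistant lines, where 14.1% of all tested genes were called. Of the 9 ligand and protease genes 1 was higher in HER2R than in CEAR, TMPRSS13, by 2.62 (log2, edgeR adjusted p = 0.00929), which ended without HER2R library 2 (0.0645), and the block gave 2. Of 22 partners 2 were higher, ADAM17 by 0.96 (edgeR adjusted p = 0.0464) and ITGB4, an integrin that can pair with MET, by 0.92 (edgeR adjusted p = 0.0489), and 1 was lower, PTPN1. The block gave 3 and 2 partners. ADAM17 ended on leaving out any HER2R or CEAR library (0.0797 to 0.213) and ITGB4 on leaving out any of the 6 libraries (0.0550 to 0.215). Of 9 neighbours 1 was higher, CAV1, by 1.25 (edgeR adjusted p = 0.0298), which ended on leaving out any HER2R or CEAR library (0.0701 to 0.142), and 0 were lower by edgeR, with 2 at an unadjusted p under 0.05, 2 by DESeq2 and 2 with the block.

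Of 32 relay genes shared by these receptors 31 were tested, with a median log2 fold change of 0.03 in HER2R and 0.10 in CEAR. In HER2R 3 rose and 4 fell against MKN45 (4 and 8 with the block), where 9.74% of all tested genes were called (33.7% with the block). MAPK3, which encodes the kinase ERK1, averaged 21.5 ± 0.0903 CPM in HER2R, 43.5 ± 11.4 CPM in CEAR and 95.4 ± 18.3 CPM in MKN45. It fell by 2.15 in HER2R (log2, edgeR adjusted p = 0.0054, SE 0.229), a call that ended without either HER2R library (0.0559 to 0.0584), and by 1.13 in CEAR (edgeR adjusted p = 0.0364), which ended without any library other than CEAR library 2 (0.0583 to 0.131). PIK3R1, the main regulatory subunit of PI3K, averaged 97.0 ± 2.37 CPM in HER2R, 96.9 ± 11.2 CPM in CEAR and 174 ± 7.52 CPM in MKN45. It fell by 0.84 in HER2R (edgeR adjusted p = 0.0173) and by 0.84 in CEAR (edgeR adjusted p = 0.0199). AKT1 fell by 0.82 (edgeR adjusted p = 0.0194) and BRAF by 0.79 (edgeR adjusted p = 0.0264) in HER2R. RPS6KB1, the S6 kinase, rose by 1.00 (edgeR adjusted p = 0.0180), SOS1, an exchange factor for RAS, by 0.97 (edgeR adjusted p = 0.0366), and PIK3R3 by 0.94 (edgeR adjusted p = 0.0292) in HER2R. The HER2R calls of PIK3R1, AKT1, BRAF, SOS1 and PIK3R3 ended on leaving out any HER2R or MKN45 library (0.0594 to 0.188). That of RPS6KB1 ended without HER2R library 1, HER2R library 2 or MKN45 library 2 (0.0816 to 0.123), and PIK3R1 in CEAR on leaving out any of the 6 libraries (0.0573 to 0.116). In CEAR 0 relay genes rose (5 at an unadjusted p under 0.05, 2 by DESeq2) and 2 fell, and the block gave 5 and 4. The share of all tested genes called there was 6.19%, and 25.8% with the block. Between the resistant lines 4 relay genes were higher in HER2R than in CEAR and 7 were lower (8 and 8 with the block). In that comparison 14.1% of all tested genes were called, and 38.2% with the block. The farthest apart were MAPK3 at -1.02 (edgeR adjusted p = 0.0332), PIK3CD at 1.02 (edgeR adjusted p = 0.0461) and AKT1 at -0.92 (edgeR adjusted p = 0.0132). MAPK3 and AKT1 ended without HER2R library 1, HER2R library 2 or CEAR library 2 (0.126 to 0.160 and 0.0701 to 0.0906), and PIK3CD on leaving out any of the 6 libraries (0.0617 to 0.195).

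Cell type markers were read beside these values. All 6 epithelial markers were tested, with a summed level of 11962 to 15625 CPM in HER2R, 8369 to 10087 CPM in CEAR and 10609 to 12768 CPM in MKN45. In HER2R against MKN45 0 rose and 0 fell by edgeR (1 and 2 at an unadjusted p under 0.05, 1 and 1 by DESeq2). With the block EPCAM was higher and CDH1 and CLDN7 were lower. All 8 gastric and intestinal markers were tested, summing to 336 to 434 CPM in HER2R, 456 to 1072 CPM in CEAR and 563 to 1038 CPM in MKN45. Their median log2 fold change in HER2R against MKN45 was -1.44, with 0 higher and 1 lower by edgeR, 0 and 1 by DESeq2, and 0 and 6 with the block. The lower gene was VIL1, a microvillus protein (log2 fold change -1.18, edgeR adjusted p = 0.0302), and its call ended without HER2R library 2, MKN45 library 1 or MKN45 library 2 (0.0866 to 0.118). In CEAR against MKN45 0 epithelial markers were called in either direction by edgeR (0 higher and 1 lower at an unadjusted p under 0.05, 0 by DESeq2, and 0 and 1 with the block), and 0 gastric and intestinal markers (1 and 1 at an unadjusted p, 0 by DESeq2, and 3 and 3 with the block). Between HER2R and CEAR 1 epithelial marker was higher in HER2R and 0 were lower by edgeR. At an unadjusted p under 0.05 these were 2 and 1, by DESeq2 4 and 1, and with the block 2 and 2. Of the gastric and intestinal markers 0 were higher and 2 lower (0 and 2 by DESeq2, 0 and 4 with the block). Their median log2 fold change was -1.15. The share of all tested genes called there was 14.1%, and 38.2% with the block. TFF1, TFF2, TFF3, MUC5AC, CDX2 and LGALS4 were higher in library 2 than in library 1 of each line, VIL1 was lower, and MUC6 was mixed. TFF1 had 7.24 and 66.7 CPM in HER2R, 5.16 and 32.1 CPM in CEAR, and 10.1 and 173 CPM in MKN45. MUC5AC had 0.153 and 3.32 CPM in HER2R, 99.6 and 366 CPM in CEAR, and 4.11 and 82.1 CPM in MKN45. The part of these markers in the results was not tested. None of 9 T and NK cell markers passed the filter, with sums of 0.153 to 0.383 CPM in HER2R, 0.169 to 0.202 CPM in CEAR and 0.0354 to 0.159 CPM in MKN45, and CD3D, CD2, NKG7 and GZMB were at 0 in all libraries. Of 7 fibroblast markers 1 was tested, and the sum was 3.55 to 7.67 CPM in HER2R, 1.15 to 1.81 CPM in CEAR and 0.978 to 1.88 CPM in MKN45, with DCN, THY1 and FAP at 0. COL1A1 alone made up nearly all of that sum in HER2R, at 7.44 and 3.55 CPM in HER2R, 1.69 and 1.10 CPM in CEAR, and 1.68 and 0.591 CPM in MKN45. It did not pass the test in HER2R against MKN45 (edgeR adjusted p = 0.0564, and 0.00083 with the block). LUM had 0 counts in HER2R and CEAR, and COL1A2 and PDGFRB stayed at or under 0.178 CPM in every library. The part of the fibroblast sum in the FGF2 and IGF2 results was not tested. Of 6 myeloid markers 1 was tested, with sums of 3.26 to 3.49 CPM in HER2R, 2.77 to 5.64 CPM in CEAR and 4.94 to 15.1 CPM in MKN45. B cell markers (4, none tested) summed to at most 0.0765 CPM in HER2R, 0.0723 CPM in CEAR and 0.318 CPM in MKN45. In bulk RNA of this kind, fewer cells of a type and less RNA per cell cannot be told apart.

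The genes most alike in pattern were found by Pearson's correlation of log2 CPM over the 6 libraries, which share lines and numbers, so the values are descriptions. For MET they included CYP51A1 (r = 0.993) and MRPL4 (r = 0.992), and 24 tested genes exceeded 0.95. For FGF2 they were NKD2, LOC90784 and CDA (0.998 to 0.999), with 250 genes over 0.95. For FGFR3 they were LOC101928238, BPNT1 and ERI2 (0.993 to 0.999), with 241 over 0.95, and for FGFR2 EML6, ERVMER34-1 and PPM1B (0.996 to 0.999), with 182. For IGF1R they were GPR161, SIX4 and FLG-AS1 (0.995 to 0.998), with 163, for INSR SLC35F3, SLC30A4 and TLR3 (0.993 to 0.997), with 157, and for IGF2 ATF3, WNT7B and NUTM2A-AS1 (0.992 to 0.994), with 123.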

How the data were processed

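Total RNA of HER2R, CEAR and MKN45 cells was sequenced in 6 libraries, 2 per line, made with a stranded kit after removal of ribosomal RNA, per the labels' protocols. The authors deposited raw counts, whole numbers in each of the 6 libraries, by gene symbol. GRCh38 and limma are named in the submitters' processing notes. For the aligner, the counter and the annotation nothing was given in the sources used here. Totals ran from 39657353 to 57964246 counts, and 1 count was 0.0177 to 0.0255 CPM. The libraries of a line differed by far more than counting noise (chi-square per degree of freedom 62.1 in HER2R, 91.5 in CEAR and 131 in MKN45).

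From the counts, edgeR 4.0.16 in R 4.3.3 was fitted by quasi-likelihood with a term per line (filterByExpr by line, TMM scaling, 3 residual and 3.51 prior degrees of freedom), and p-values were adjusted by Benjamini-Hochberg over 14958 genes. Calls were made at an adjusted p under 0.05, written as "edgeR adjusted p". A log2 fold change is the fitted one, and its SE is its size over the square root of F. Levels in CPM use TMM-scaled totals of the tested genes, as mean ± SD (n = 2). Exon lengths and positions are those of GENCODE 29 and covered 22575 symbols. Promoter windows come from RefSeq. Of 284 list symbols 281 matched directly, 1 by an older name and 2 were not matched.

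The labels do not say what the library numbers mean. Library 2 minus library 1, taken per gene, correlated across lines over 14958 genes (0.341 for HER2R and MKN45, 0.484 for CEAR and MKN45, 0.292 for HER2R and CEAR; genes are not independent replicates), so the fit with the number as a replicate block is given where it changes a call.

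Named were all 10 genes, the ligands HGF, MST1, IGF1 and INS, up to 4 called genes per direction of each list described, all tested neighbours of MET, other FGF ligands at 1 CPM or more, and the 3 genes most like MET or a called gene, of which 1 is not reported here. ESRP1, ESRP2, FGF18, FGF9, IRS1, IGF2R, SYNM, ARHGEF18, the marker genes given singly and the overlapping genes were named beyond this rule, after their values were seen. The 10 genes and the lists were chosen with earlier results of these data known. Alternatives were the block, RLE factors or library size alone in place of TMM, filters of none or of 1 CPM, DESeq2 1.42.0 and limma-voom (limma 3.58.1), a fit of the compared lines alone and a test against a fold of 1.5. Each library was also left out in turn, and a line left with 1 library was then assumed to vary like the others. The scripts were tested on simulated data. The 95% intervals of folds come from the fit, with its residual and prior degrees of freedom. Intervals and floors cover counting error only where they rest on counts of 0.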

Additional observations from a re-analysis of the deposited data

Results flagged for a closer look

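These 5 genes drew attention because the direct test between the resistant lines found a difference. The log2 fold change of HER2R against CEAR was 5.26 for FGF2, 3.09 for IGF2, 1.00 for INSR and 0.61 for FGFR2, all higher in HER2R, and -2.18 for FGFR3, lower in HER2R. The edgeR adjusted p was 0.00229, 0.0135, 0.0423, 0.0350 and 0.00649 in this order. For FGF2 the lines moved to opposite sides of MKN45, at 3.47 in HER2R and -1.79 in CEAR. The CEAR call of FGF2 lay close to the threshold and ended under several alternatives, given in the next section. For INSR the difference lay in CEAR, whose own comparison with MKN45 did not pass the test without the block (edgeR adjusted p = 0.0660).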

How the results depend on the processing

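The 10 genes gave 4 higher and 1 lower in HER2R against MKN45 (1457 of all genes called), 0 and 1 in CEAR against MKN45 (926), and 4 and 1 in HER2R against CEAR (2105). With the replicate block the lower genes were 2 in HER2R against MKN45 (5040 of all genes called), 2 in CEAR against MKN45, with 1 higher (3860), and 2 in HER2R against CEAR (5717). DESeq2 called 2820, 2098 and 3432 of all genes in this order, with 1 higher and 2 lower of the 10 in CEAR. The test against a fold of 1.5 gave 2 higher in HER2R (407 of all genes), 0 lower in CEAR (299) and 2 higher in HER2R against CEAR (435). FGF2, the lower gene in CEAR, also dropped to 0 calls with library size alone, no filter, limma-voom and the compared lines alone (404 of all genes). No filter left 2 higher in HER2R against CEAR and 3 in HER2R against MKN45, and the compared lines alone left 3 higher in both. Leaving out 1 library gave 2 to 3 higher and 0 to 1 lower in HER2R against MKN45 (189 to 1136 of all genes), 0 higher and 0 lower in CEAR against MKN45 (253 to 428), and 1 to 3 higher and 0 to 1 lower in HER2R against CEAR (102 to 1856). Such a fit has fewer samples, and for the other changes the cause was not tested. Over single genes and alternatives, leave-one-out fits included, 399 of 450 values kept their side of the threshold, 45 lost their call, 6 gained one, and 0 called values turned their direction. Most of the 450 values belong to genes and comparisons without a call in the main fit, which had none to lose. The 45 losses thus fall on the smaller part. With 2 libraries per line, the differences of MET could not be told from the spread with or without the block. IGF1R in CEAR did not pass without the block (edgeR adjusted p = 0.0753) and passed with it (0.0102).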

Other observations

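Receptor tyrosine kinases outside the families described above gave further values, from a list of 50 genes of which 27 were tested. In HER2R against MKN45 4 rose and 3 fell (7 and 5 with the replicate block), with a median log2 fold change of 0.34. The share of all tested genes called there was 9.74%, and 33.7% with the block. PTK7, a pseudokinase of planar polarity and WNT signalling, had 132 and 299 counts in HER2R and 31 and 14 in MKN45, a log2 fold change of 3.62 (edgeR adjusted p = 0.0159) that ended without HER2R library 2 or either MKN45 library (0.0578 to 0.0749). AATK, a kinase linked to apoptosis, averaged 6.03 ± 0.636 CPM in HER2R and 0.743 ± 0.0743 CPM in MKN45 (3.02, edgeR adjusted p = 0.0162). AXL, the GAS6 receptor, averaged 1.82 ± 0.668 CPM in HER2R and 0.440 ± 0.0210 CPM in MKN45 (2.05, edgeR adjusted p = 0.0369). EPHA4, an ephrin receptor, averaged 8.45 ± 2.43 CPM in HER2R and 3.21 ± 0.254 CPM in MKN45 (1.40, edgeR adjusted p = 0.0301). The receptors that fell in HER2R were EPHB6 (-2.99, edgeR adjusted p = 0.0353), EPHA1 (-1.12, edgeR adjusted p = 0.0373) and ERBB3, the neuregulin receptor (-0.92, edgeR adjusted p = 0.0272). The calls of AATK, EPHA4, EPHA1 and ERBB3 ended on leaving out any HER2R or MKN45 library (edgeR adjusted p 0.0525 to 0.192), that of AXL on leaving out any of the 6 (0.0599 to 0.186), and that of EPHB6 on leaving out any library other than MKN45 library 1 (0.0504 to 0.179).

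In CEAR against MKN45 6.19% of all tested genes were called, and 25.8% with the block. Of the 27, 0 rose (5 at an unadjusted edgeR p under 0.05, 3 by DESeq2) and 1 fell (5 and 4 with the block). It was STYK1, a membrane-bound kinase, at 0.583 ± 0.0616 CPM in CEAR and 3.18 ± 0.159 CPM in MKN45 (log2 fold change -2.45, edgeR adjusted p = 0.0130), a call that ended without CEAR library 1, CEAR library 2 or MKN45 library 1 (0.0507 to 0.0830). Between the resistant lines 4 of the 27 were higher in HER2R than in CEAR and 1 was lower (9 and 5 with the block). In that comparison 14.1% of all tested genes were called, and 38.2% with the block. AATK differed by 3.59 (log2, edgeR adjusted p = 0.0123), a call that ended without either HER2R library (0.0662 to 0.0835). STYK1 stood at 2.94 ± 0.232 CPM in HER2R, 2.33 above CEAR on the log2 scale (edgeR adjusted p = 0.0122). AXL differed by 2.04 (edgeR adjusted p = 0.0330), MERTK, another receptor of the same family, by 0.87 (edgeR adjusted p = 0.0362) and LMTK2 by -0.50 (edgeR adjusted p = 0.0454). AXL and MERTK ended on leaving out any HER2R or CEAR library (0.0828 to 0.177) and LMTK2 on leaving out any of the 6 (0.0658 to 0.212). STYK1 ended on leaving out any HER2R or CEAR library (0.0565 to 0.0800).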
